A study of Arabidopsis thaliana with 32 samples.

Results

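Roots of sku5 seedlings grown for 8 d on the International Space Station are compared here with roots of sku5 seedlings grown for 8 d on the ground. The members are all loci in the table in which the authors compared these groups with Cuffdiff, 1648 loci out of 4882 that any of the study's 11 tables lists. The study sequenced 32 Arabidopsis thaliana root samples in 8 groups, made up of the sku5 mutant or WS (Wassilewskija), spaceflight or ground, and 4 d or 8 d. The sku5 spaceflight group at 8 d has 4 samples, and so has the sku5 ground group at 8 d. Each sample pooled the dissected roots of 2 to 3 seedlings. The spaceflight seedlings grew on plates standing upright in the Veggie unit, with light of 100 to 135 µmol per m2 each second. The ground seedlings grew in a Veggie unit inside a chamber that replayed the station's temperature, carbon dioxide and light 48 h later. All of these seedlings carry the sku5 mutation, were grown in light and were fixed in RNAlater in Kennedy Fixation Tubes. The labels name neither the sku5 allele nor its parent line.

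SKU5 encodes a glycoprotein anchored at the outer face of the plasma membrane and related to multicopper oxidases, although it is not known to hold copper. Roots without it grow at an angle on tilted agar, a trait called skewing, which combines touch, gravity and the twisting of elongating cell files. A root also takes up nitrate, ammonium and iron, seals its endodermis with lignin and suberin, and loosens its walls as cells elongate. Genes of these processes are among those followed below.

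The table holds 1 FPKM value (fragments per kilobase of transcript and sequencing depth) for each group and locus, so the spread between the 4 samples of a group is not known. The table lists only loci that the authors called different, with q-values below 0.05. "Rose" and "fell" below refer to these calls, with spaceflight set against ground, and folds are ratios of the authors' FPKM values. The log2 fold change divided by the authors' score gives a rough standard error, with a median of 0.308 on the log2 scale. Of the 1648 loci, 1497 carry a single gene, 140 merge neighbouring genes and 11 have no gene name. A locus that merges genes is called merged below, and its value cannot be assigned to any of its genes.

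In spaceflight 540 loci rose, which is 32.8% of those listed, and 1108 fell, which is 67.2%. Most differences were small: the median fold was 1.52 among loci that rose and 1.55 among loci that fell. A change of at least 2-fold was listed for 56 loci that rose (3.40%) and for 187 that fell (11.3%), counting 4 loci listed at 0 on the ground and 3 listed at 0 in spaceflight. The loci that fell were the more abundant ones, with a median of 73.7 FPKM in spaceflight and 119 FPKM on the ground. Loci that rose had medians of 22.6 FPKM in spaceflight and 14.0 FPKM on the ground. The most abundant locus, a merged one of RTFL3, AT1G07590 and the metallothionein gene MT1A, stood at 6656 FPKM in spaceflight and 8671 FPKM on the ground. MT1C, a gene for a small metal-binding protein with a locus of its own, had 3172 FPKM in spaceflight and 4949 FPKM on the ground. Among the smallest listed changes was the 1.21-fold fall of AT4G29480, a subunit of the mitochondrial ATP synthase. No chromosome stood apart, with 65.2% to 70.1% of its listed loci lower.

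**Figure D1:**
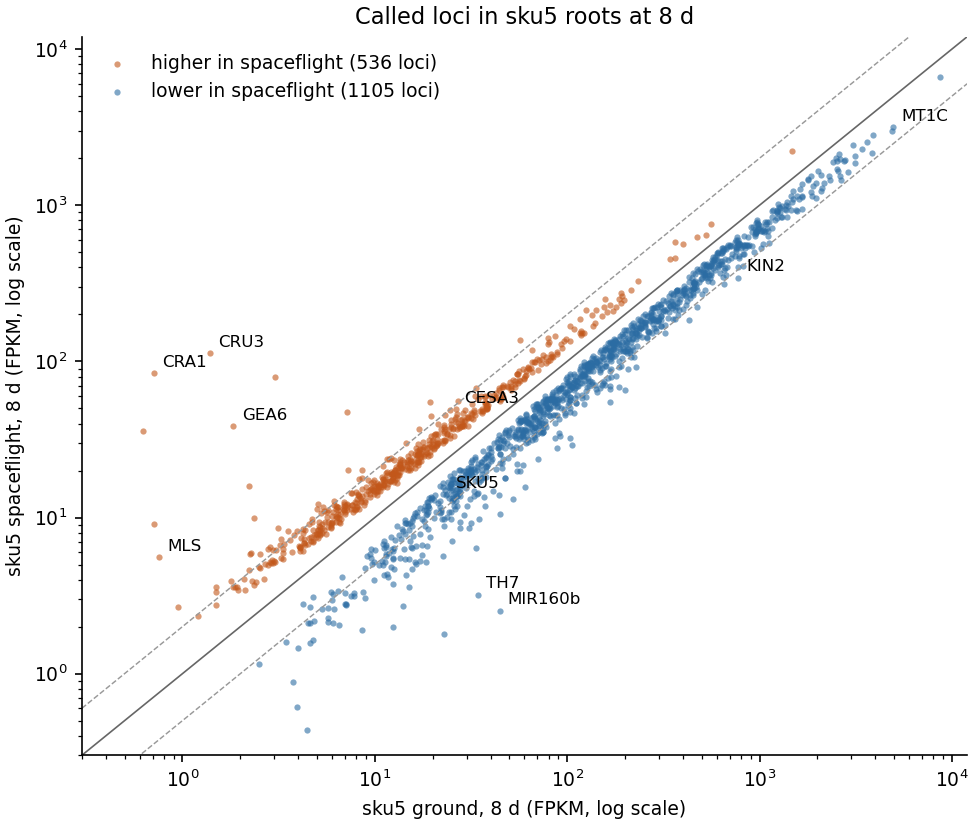
Each point is a called locus with both values above 0, placed by its FPKM on the ground (horizontal, log scale) and in spaceflight (vertical, log scale); the solid line marks equal values and the dashed lines 2-fold differences. Points below the line, 1105 loci, reach to the highest levels, while CRA1, CRU3 and GEA6 stand far above it.

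Direction went with transcript length. All 27 loci with a longest annotated transcript of up to 500 nt fell, as did 459 of 467 between 501 and 1000 nt and 325 of 355 between 1001 and 1500 nt. Between 1501 and 2000 nt 101 of 225 fell. Above that the balance turned, with 56 of 305 lower between 2001 and 3000 nt and 20 of 114 lower over 3000 nt. The median transcript measured 2289 nt with 9 exons among loci that rose, and 1009 nt with 2 exons among loci that fell. At 10 to 50 FPKM in the higher group, 92.1% of loci fell among transcripts of up to 1000 nt and 16.3% among those over 2000 nt. Among the 16 transcripts over 2000 nt with 200 FPKM or more, however, 68.8% fell. The WS table at 8 d, made from other libraries, had 81.4% lower between 501 and 1000 nt and 0.758% over 3000 nt, while the sku5 table at 4 d had 50.3% and 30.1%. What part transcript length has in the calls was not tested, so gene groups are given below beside the percentage of all called loci in their members' length classes that fell.

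**Figure D2:**
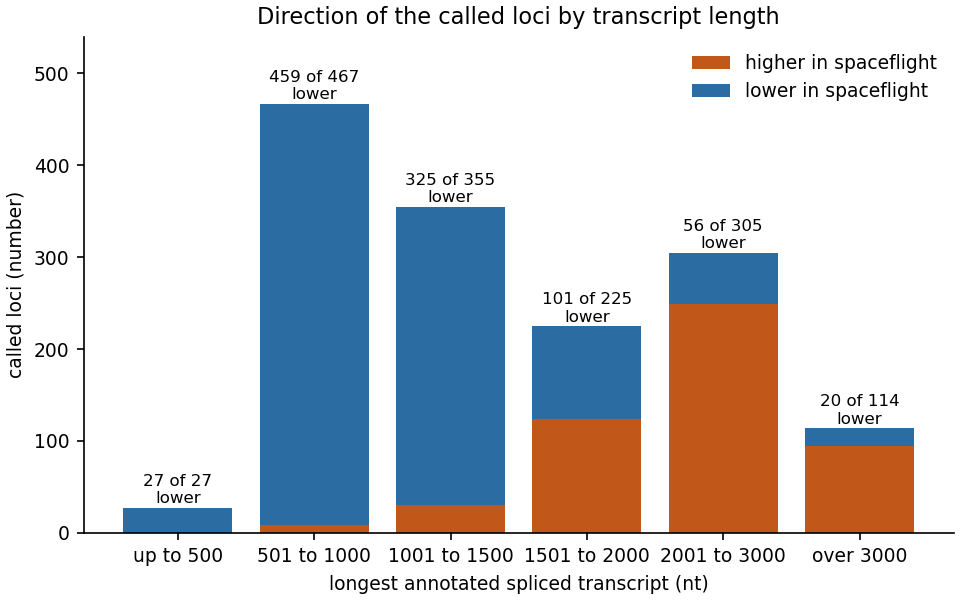
Bars count the called loci of each transcript-length class (horizontal, nt), split into loci higher in spaceflight and lower in spaceflight. The share that was lower drops from 27 of 27 loci in the shortest class to 20 of 114 in the longest.

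Genes of the maturing seed gave the highest ratios. These genes encode the reserves that an embryo lays down, and the late embryogenesis abundant (LEA) proteins that protect it when it dries. Of 35 genes in the list, 8 were called and all 8 rose, in a table in which 32.8% of loci rose and 67.2% fell, and in length classes in which 73.3% fell. CRU3 (AT4G28520), a cruciferin storage globulin, stood at 113 FPKM in spaceflight against 1.39 FPKM on the ground, an 81.2-fold difference. CRA1 (AT5G44120), the gene of another cruciferin, stood at 84.4 FPKM in spaceflight against 0.708 FPKM on the ground. GEA6 (AT2G40170), an Em-type LEA gene, stood at 38.5 FPKM in spaceflight against 1.84 FPKM on the ground. The precision of these ratios is low: the log2 fold changes of 6.34 for CRU3 and 6.90 for CRA1 have rough standard errors of 1.06 and 1.27. The authors' deposited table gives both genes a q-value of 0.0435, which does not measure that precision. The bases just upstream of the annotated start of these 3 genes, the list's most abundant, are shown because they carry short elements known from seed promoters. Capitals mark the RY element (CATGCA), which seed regulators of the B3 type bind, and the ACGTG core of elements bound by bZIP factors of abscisic acid signalling, on either strand.
CRU3: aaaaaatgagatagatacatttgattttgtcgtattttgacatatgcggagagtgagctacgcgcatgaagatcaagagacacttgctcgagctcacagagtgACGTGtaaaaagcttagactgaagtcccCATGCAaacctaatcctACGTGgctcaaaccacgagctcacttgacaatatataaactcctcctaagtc
CRA1: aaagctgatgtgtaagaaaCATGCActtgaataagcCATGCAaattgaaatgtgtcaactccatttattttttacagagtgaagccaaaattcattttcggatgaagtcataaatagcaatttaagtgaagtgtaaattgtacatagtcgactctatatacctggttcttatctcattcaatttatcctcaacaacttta
GEA6: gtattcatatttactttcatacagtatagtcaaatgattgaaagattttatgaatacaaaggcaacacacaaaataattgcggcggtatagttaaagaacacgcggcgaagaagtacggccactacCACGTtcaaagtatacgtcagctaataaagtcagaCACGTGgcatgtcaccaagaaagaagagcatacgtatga
These are the 200 bases before the start in the TAIR10.1 assembly of the Columbia accession, at chr4:14087356-14087555 on the plus strand for CRU3, chr5:17758337-17758536 on the minus strand for CRA1 and chr2:16780369-16780568 on the minus strand for GEA6. An RY element lies in this window of 5 of the 8 called seed genes (62.5%) and of 6.69% of 27443 protein-coding genes, against 4.95% of the single genes that rose. An ACGTG core lies in 5 of the 8 (62.5%) and in 19.8% of all, against 23.8% of those that rose.

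The other seed genes were lower in level but moved the same way. SESA2, a seed albumin, was at 13.9 FPKM in spaceflight, and OLEO4, an oil-body oleosin, at 5.80 FPKM in spaceflight; both are listed at 0 on the ground. LEA18 had 16.0 FPKM in spaceflight and 2.23 FPKM on the ground. The LEA gene AT3G15670 had 9.10 FPKM in spaceflight and 0.715 FPKM on the ground. MLS, malate synthase of the glyoxylate cycle by which germinating seeds turn oil into sugar, had 5.60 FPKM in spaceflight and 0.760 FPKM on the ground. Summed over the 8 called genes, the level was 286 FPKM in spaceflight and 7.64 FPKM on the ground. Outside the list, AT1G54870, AT1G03106 and AT2G21820 were among the 10 highest ratios. AT1G54870, an oxidoreductase of the Rossmann-fold superfamily, had 35.6 FPKM in spaceflight and 0.625 FPKM on the ground. AT1G03106, with no known product, had 79.3 FPKM in spaceflight and 3.03 FPKM on the ground. AT2G21820, annotated as a seed maturation protein, had 47.2 FPKM in spaceflight and 7.21 FPKM on the ground. The same groups also stand in tables that share these libraries: CRA1 had 81.1 FPKM at 8 d and 2143 FPKM at 4 d in sku5 spaceflight roots. Seed genes mark a tissue other than root, and whether seed or seed-coat material entered the samples was not tested. In bulk roots, more cells of a type and more RNA per cell cannot be told apart.

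**Figure D3:**
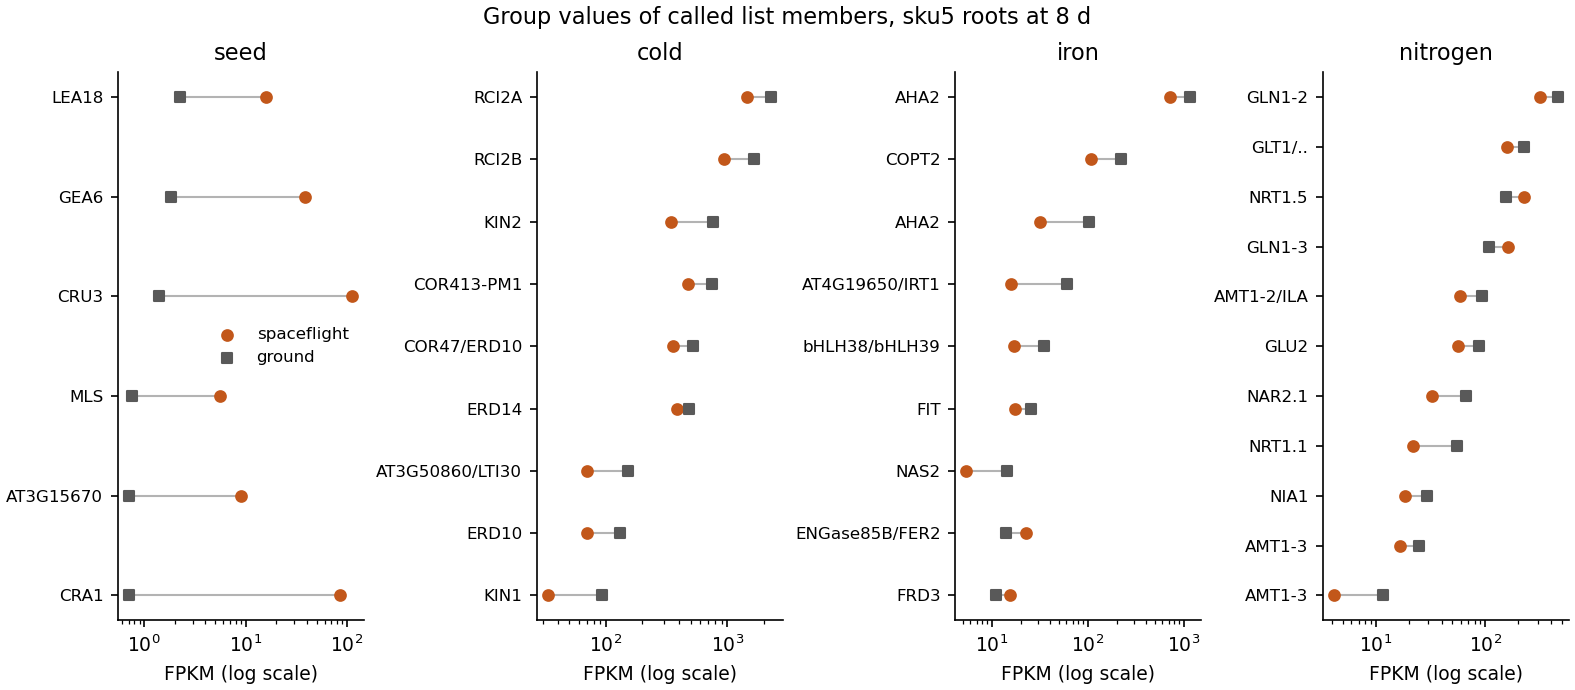
Spaceflight (circles) and ground (squares) group values in FPKM on log axes are joined for the called members, with both values above 0, of the seed, cold, iron and nitrogen lists. The 6 seed genes shown lie far to the right in spaceflight, all 9 cold loci lie to the left, and the iron and nitrogen lists hold 2 exceptions each.

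The called genes induced by cold and drying fell, as did most loci of their lengths. Of 29 in the list, 9 loci were called and all fell, where 67.2% of all listed loci and 88.7% of loci of their lengths did. The largest ratio was that of KIN1 (AT5G15960), with 33.2 FPKM in spaceflight against 92.1 FPKM on the ground. Its tandem neighbour KIN2 (AT5G15970), which encodes a closely similar small hydrophilic protein, had 344 FPKM in spaceflight against 769 FPKM on the ground. Because the pair is so alike, the authors' counting may have split shared reads between them. The membrane peptide genes RCI2A and RCI2B stood at 1449 and 947 FPKM in spaceflight, against 2312 and 1669 FPKM on the ground. COR413-PM1, a cold-regulated membrane protein gene, had 475 FPKM in spaceflight and 749 FPKM on the ground. The dehydrin gene ERD14 had 382 FPKM in spaceflight and 481 FPKM on the ground. The falls ranged from 1.26-fold for ERD14 to 2.77-fold for KIN1. The windows upstream of KIN1 and KIN2 are shown to compare the pair, with the ACGTG core and the cold-response element core CCGAC in capitals where they occur on either strand.
KIN1: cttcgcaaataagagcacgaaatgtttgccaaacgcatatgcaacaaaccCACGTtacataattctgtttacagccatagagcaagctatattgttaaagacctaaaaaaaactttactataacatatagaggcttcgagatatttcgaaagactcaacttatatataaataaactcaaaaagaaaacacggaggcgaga
KIN2: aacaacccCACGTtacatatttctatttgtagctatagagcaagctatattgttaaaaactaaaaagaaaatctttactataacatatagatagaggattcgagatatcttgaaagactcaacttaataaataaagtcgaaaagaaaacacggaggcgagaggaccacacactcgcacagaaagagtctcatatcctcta
They lie at chr5:5209517-5209716 and chr5:5211519-5211718 of TAIR10.1, both on the plus strand. Each holds 1 ACGTG core, and CCGAC is not in either window. In the 7 single genes of the called cold loci CCGAC was found in 28.6% of the windows, against 10.1% of all protein-coding genes and 11.6% of single genes that fell.

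Ribosomal protein genes mostly fell and translation factor genes mostly rose, each in the direction that most loci of their lengths took. Of 52 called loci for ribosomal proteins, 48 fell and 4 rose, where 67.2% of all listed loci and 93.2% of loci of their lengths fell, with a median log2 fold change of -0.46 against -0.50 over all listed loci. The changes were small and the levels high. AT2G40205, for a ribosomal protein of the L41 family, had 2999 FPKM in spaceflight and 4880.3 FPKM on the ground. AT3G11120, of the same family, had 2171 FPKM in spaceflight and 3835 FPKM on the ground. The 4 that rose were among the longer transcripts, from 1635 to 1766 nt: AT3G09630 and AT5G02870, of the L4 family, RP1, and AT3G49080. RP1 had 763 FPKM in spaceflight and 562 FPKM on the ground. Of the translation initiation and elongation factors, 15 of 18 called loci were higher, where 35.4% of loci of their lengths fell. EIF3A, the largest subunit of the initiation complex eIF3, had 34.0 FPKM in spaceflight and 20.4 FPKM on the ground. TIF3B1, another eIF3 subunit, had 43.9 FPKM in spaceflight and 26.5 FPKM on the ground. AT5G60390, an elongation factor gene of the EF-Tu family that carries aminoacyl-tRNA to the ribosome, had 2229.5 FPKM in spaceflight and 1482 FPKM on the ground. Aminoacyl-tRNA synthetases had 6 loci higher and 2 lower, where 30.3% of loci of their lengths fell. The 2 that fell were a merged locus and AT3G57320, annotated as a threonine-tRNA ligase. The window before AT2G40205, the most abundant ribosomal protein locus that holds a single gene, is shown with its telo-box (AAACCCTA) and site II elements (TGGGCC) in capitals on either strand, both known from promoters of translation genes.
AT2G40205: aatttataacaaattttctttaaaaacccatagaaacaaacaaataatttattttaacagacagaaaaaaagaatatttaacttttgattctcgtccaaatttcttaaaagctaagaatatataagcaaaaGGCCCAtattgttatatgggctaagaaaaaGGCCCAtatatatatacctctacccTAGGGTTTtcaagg
It lies at chr2:16792623-16792822 on the minus strand of TAIR10.1. A site II element was found in 31 of 50 windows of called ribosomal protein genes (62.0%), in 12.6% of all protein-coding genes and in 14.6% of single genes that fell. A telo-box was found in 18.0% of them and in 3.72% of all.

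Genes annotated to the mitochondrial respiratory chain and ATP synthase, with the assembly factors COX19-1 and COX19-2 among them, fell at 30 of 30 called loci, near the 93.7% of loci of their lengths. The largest change was that of AT3G46430, a subunit of the ATP synthase, with 534 FPKM in spaceflight and 1019 FPKM on the ground. SDH8, a plant-specific subunit of complex II, had 929 FPKM in spaceflight and 1453 FPKM on the ground. AT4G21105, annotated as a cytochrome c oxidase, had 1545 FPKM in spaceflight and 2619 FPKM on the ground. These transcripts are short, with a median of 852 nt. Histones also fell in 10 of 10 called loci, and 96.6% of loci of their lengths did so.

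Protein folding genes of the endoplasmic reticulum rose. All 7 called genes for protein disulfide isomerases, calnexin and calreticulin were higher, where 32.8% of all listed loci rose and 33.5% of loci of their lengths fell. This group, like the vesicle genes below, was put together after the values had been seen. In WS at 8 d 1 locus of the folding group was called, and it fell. PDIL1-1, a protein disulfide isomerase, had 142 FPKM in spaceflight and 79.8 FPKM on the ground. CNX1, the lectin chaperone calnexin, had 99.6 FPKM in spaceflight and 67.2 FPKM on the ground. CRT1, a calreticulin that binds calcium in the same compartment, had 585 FPKM in spaceflight and 365 FPKM on the ground. SHD, the HSP90 of the endoplasmic reticulum, had 134 FPKM in spaceflight and 80.4 FPKM on the ground. The heat shock list as a whole had 6 of 7 called loci higher, where 23.5% of loci of their lengths fell. Its cytosolic members included HSP70B, with 6.49 FPKM in spaceflight against 2.84 FPKM on the ground, and HSP90.1, with 11.8 FPKM against 6.28 FPKM on the ground. HOP3, a co-chaperone that links HSP70 to HSP90, had 21.0 FPKM in spaceflight and 12.9 FPKM on the ground. The exception was the merged locus of HSC70-3, at 299.6 FPKM in spaceflight and 469 FPKM on the ground. The wider family of heat shock and DnaJ proteins had 15 loci higher and 7 lower, where 40.9% of loci of their lengths fell. NAI2, which forms the ER bodies of Brassicaceae roots, had 82.5 FPKM in spaceflight and 54.7 FPKM on the ground. Vesicle coat and tethering genes had 7 loci higher and 1 lower, and 17.7% of loci of their lengths fell.

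Nitrogen uptake and assimilation genes mostly fell. Of the nitrogen list, 9 of 11 called loci fell, beside 38.1% of loci of the same lengths and 67.2% of all listed loci. NRT1.1 (AT1G12110), the nitrate transporter that also senses nitrate, had 22.0 FPKM in spaceflight and 55.1 FPKM on the ground, and the authors' deposited table gives a q-value of 0.00593. NAR2.1, the partner protein that high-affinity nitrate transporters need, had 32.7 FPKM in spaceflight and 66.9 FPKM on the ground. AMT1-3, a root ammonium transporter, was called at 2 loci, at 4.17 and 16.7 FPKM in spaceflight against 11.7 and 24.8 FPKM on the ground. All of these transporters were lower. The enzymes followed: NIA1, nitrate reductase, had 18.5 FPKM in spaceflight and 29.4 FPKM on the ground. GLU2, a ferredoxin-dependent glutamate synthase, had 56.4 FPKM in spaceflight and 88.3 FPKM on the ground. GLN1-2, a cytosolic glutamine synthetase, had 314 FPKM in spaceflight and 457 FPKM on the ground. The exceptions were NRT1.5, which moves nitrate towards the shoot through the xylem, with 224 FPKM in spaceflight and 155 FPKM on the ground, and GLN1-3, another glutamine synthetase, with 160.1 FPKM in spaceflight and 109 FPKM on the ground.

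Called loci of the iron list mostly fell. Of its 9 called loci 7 were lower (77.8%), against 67.2% of all listed loci and 55.8% of loci of their lengths. The last share leaves out 3 merged loci, and AHA2 counts at 2 of the 9 loci. FIT, the basic helix-loop-helix factor that switches on iron uptake, had 17.6 FPKM in spaceflight and 25.5 FPKM on the ground. The merged locus of its partner genes bHLH38 and bHLH39 had 16.9 FPKM in spaceflight and 35.0 FPKM on the ground. The locus of IRT1, the main iron transporter of the root surface, merged with AT4G19650, had 15.8 FPKM in spaceflight and 60.4 FPKM on the ground. FIT and both merged loci were lower in spaceflight. NAS2, which makes the metal chelator nicotianamine, had 5.45 FPKM in spaceflight and 14.3 FPKM on the ground. COPT2, a copper transporter induced by low copper and low iron, had 107 FPKM in spaceflight and 222 FPKM on the ground. The proton pump gene AHA2, which acidifies the soil around the root, was called at 2 loci, with 713 and 32.1 FPKM in spaceflight against 1156 and 103 FPKM on the ground. The 2 that rose were FRD3 and a merged locus. FRD3, which releases citrate into the xylem, had 15.6 FPKM in spaceflight and 11.1 FPKM on the ground. The merged locus of FER2, a ferritin gene, had 22.7 FPKM in spaceflight and 14.2 FPKM on the ground. That value cannot be assigned to FER2. Of other nutrients, the phosphate transporter PHT1-1 fell, with 56.9 FPKM in spaceflight and 82.2 FPKM on the ground. PHO1-H1, a phosphate exporter family gene, rose, with 9.33 FPKM in spaceflight and 5.73 FPKM on the ground. The sulfate transporter SULTR1;2 had 86.7 FPKM in spaceflight and 132 FPKM on the ground, and the boric acid channel NIP5;1 had 52.0 FPKM in spaceflight and 84.3 FPKM on the ground.

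Called loci of several cell wall and secreted peptide families mostly fell, for arabinogalactan proteins and signalling peptides near the share of their lengths. Called loci for subtilases and pectin enzymes mostly rose, as did most loci of their lengths. For subtilases 4 of 5 rose and 20.0% fell, and for pectin enzymes 2 of 3 rose and 33.3% fell. Of all called loci of their lengths 18.4% fell. All 13 called loci for arabinogalactan proteins fell, as did 25 of 26 for proline-rich proteins and extensins, in length classes where 97.0% and 79.9% did. AGP21 had 1110.0 FPKM in spaceflight and 1957 FPKM on the ground. All 18 called loci for signalling peptides fell, and 97.6% of loci of their lengths did. Among them, PSK3, a precursor of the growth peptide phytosulfokine, had 72.4 FPKM in spaceflight and 154 FPKM on the ground. RALFL27, of the family of rapid alkalinization peptides, had 17.9 FPKM in spaceflight and 47.8 FPKM on the ground. The stem cell peptide family gene CLE12 had 18.2 FPKM in spaceflight and 38.0 FPKM on the ground. Genes annotated as peroxidases, most of them secreted enzymes that cross-link walls, fell at 14 of 16 called loci, beside 68.0% of loci of their lengths; these annotations also take in DOX1, a dioxygenase. The 5 called laccases, oxidases that polymerise lignin, all fell, beside 18.4% of loci of their lengths. LAC16 had 1.46 FPKM in spaceflight and 3.98 FPKM on the ground, and LAC3 had 16.7 FPKM in spaceflight and 26.6 FPKM on the ground. The laccases, signalling peptides, endoplasmic reticulum folding genes, tRNA synthetases and vesicle genes were grouped after their values had been seen. Of the xyloglucan enzymes that remodel growing walls, XTH9 fell, with 171 FPKM in spaceflight and 241 FPKM on the ground. Of 20 genes for cellulose and callose synthesis 2 were called and both rose, where 18.0% of loci of their lengths fell. CESA3, a catalytic cellulose synthase subunit of primary walls, had 49.6 FPKM in spaceflight and 26.3 FPKM on the ground. KOR1, the membrane endoglucanase that works with it, had 82.7 FPKM in spaceflight and 54.8 FPKM on the ground. In sku5 at 4 d 2 other loci of that list were called, and both fell. In WS at 8 d 2 loci other than CESA3 and KOR1 were called, and both rose.

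**Figure D4:**
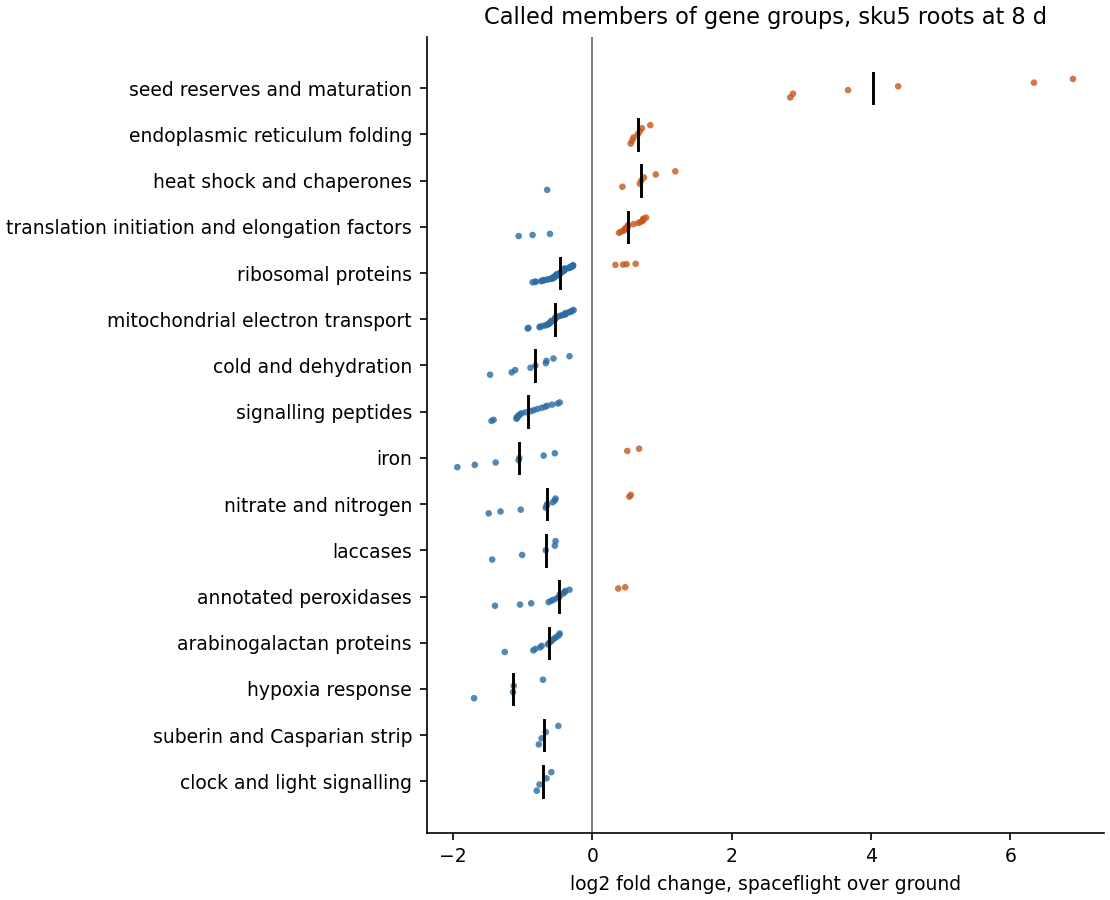
Each point is a called locus of a gene group, placed by its log2 fold change of spaceflight over ground, and the black bar is the median of the points; loci listed at 0 in a group are left out. Seed, folding and chaperone genes and translation factors lie mostly to the right of 0, and the other groups mostly to the left.

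The called loci of the endodermal, root hair and green tissue lists fell, as did most loci of their lengths. CASP1, a scaffold of the endodermal Casparian strip, had 155 FPKM in spaceflight and 265 FPKM on the ground. CASP4, of the same family, had 18.1 FPKM in spaceflight and 30.0 FPKM on the ground. CYP86A1, which hydroxylates fatty acids for suberin, had 35.3 FPKM in spaceflight and 49.8 FPKM on the ground. In all, 4 loci of the endodermal list were called and 4 fell, where 78.2% of loci of their lengths did. Root hair genes fell at 5 of 5 called loci, where 83.3% of loci of their lengths did. RHS13, an extensin-like gene of root hairs, had 157 FPKM in spaceflight and 264 FPKM on the ground. Of the green tissue list, PSAD1 and FBA2 were called, at 8.80 and 9.16 FPKM in spaceflight and at 15.7 and 14.5 FPKM on the ground, and 68.2% of loci of their lengths fell. No cell cycle or stem cell niche gene of the list was called. No level is known for a marker that is not listed.

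SKU5 itself (AT4G12420) was measured at 14.2 FPKM in spaceflight and 23.8 FPKM on the ground, a fall of 1.67-fold. In the tables of genotype at 8 d it stood at 14.2 FPKM in sku5 and 61.9 FPKM in WS in spaceflight, and at 23.5 FPKM in sku5 and 78.6 FPKM in WS on the ground. SKU5 reads were therefore lower in both sku5 groups than in WS but not at 0. Of the 19 genes of its family, SKS6 was the other one called, with 81.0 FPKM in spaceflight and 60.1 FPKM on the ground. Of the genes for skewing and gravity response 2 were called and both fell, where 71.6% of loci of their lengths did. LZY3, which sets the angle of gravitropic growth, had 15.0 FPKM in spaceflight and 26.4 FPKM on the ground, and SPR1, a microtubule protein whose loss makes roots twist to the right, had 1103 FPKM in spaceflight and 1500.0 FPKM on the ground. EIR1, the auxin efflux carrier PIN2 of root gravitropism, rose, with 17.4 FPKM in spaceflight and 9.89 FPKM on the ground. The merged locus of the auxin receptor gene AFB1 had 34.5 FPKM in spaceflight and 20.5 FPKM on the ground. GH3.17, which ties auxin to glutamate, fell, with 15.0 FPKM in spaceflight and 23.1 FPKM on the ground. Repressors of auxin response fell too: IAA28 had 187 FPKM in spaceflight and 281 FPKM on the ground, and IAA14 had 13.4 FPKM in spaceflight and 19.8 FPKM on the ground. IAA2, called at 2 loci, had 4.27 and 41.3 FPKM in spaceflight and 11.2 and 57.5 FPKM on the ground. With the merged locus of AIR1, which is not a repressor, 5 loci of that list were called and all fell, where 79.9% of loci of their lengths did.

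MIR160b (AT4G17788) had the lowest ratio of the loci with at least 5 FPKM in the higher group and both values above 0. It stood at 2.53 FPKM in spaceflight and 44.5 FPKM on the ground, a fall of 17.6-fold. The authors' deposited table gives a q-value of 0.00136. The log2 fold change is -4.14, and the rough standard error derived from the authors' score is 1.68. The microRNA represses the auxin response factors ARF10, ARF16 and ARF17, and none of the 3 is listed in any table of the study. Its mature sequence is shown with bases 2 to 8, the seed, in capitals.
ath-miR160b: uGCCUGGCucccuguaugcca
In TAIR10.1 these 21 bases lie at chr4:9888986-9889006 on the plus strand, within a precursor annotated with 89 nt. The authors' locus is longer than this precursor, so the value may include other transcribed sequence. In the table of genotype in spaceflight at 8 d, MIR160b stood at 2.52 FPKM in sku5 and 18.7 FPKM in WS.

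Among the other low ratios, TH7, a thioredoxin of the cytosolic H type, had 3.21 FPKM in spaceflight and 34.2 FPKM on the ground. AZI1, a lipid transfer-like protein of systemic immunity, had 6.39 FPKM in spaceflight and 33.7 FPKM on the ground. GRP-3, a glycine-rich protein of the wall, had 2.00 FPKM in spaceflight and 12.4 FPKM on the ground. All 3 were among the 10 lowest ratios. The 3 loci listed at 0 in spaceflight were AT5G51620, AT4G22460 and AT1G52905, at 12.0, 11.5 and 3.86 FPKM on the ground. Of the hypoxia list 4 loci were called and 4 fell, where 74.9% of loci of their lengths did. HB1, a hemoglobin that scavenges nitric oxide when oxygen is low, had 80.9 FPKM in spaceflight and 179 FPKM on the ground. PCO2, an oxygen-sensing cysteine oxidase, had 9.57 FPKM in spaceflight and 15.7 FPKM on the ground. HRA1, a factor that tempers the hypoxia response, fell 2.18-fold. Antioxidant genes fell at 9 of 9 called loci, in length classes where 96.4% did. Clock and light genes fell at 4 of 4 called loci, where 56.2% of loci of their lengths did. LUX, which belongs with ELF4 to the evening complex, had 25.7 FPKM in spaceflight and 44.9 FPKM on the ground, and ELF4 had 194 FPKM in spaceflight and 306 FPKM on the ground. HY5, which promotes growth in light, had 34.0 FPKM in spaceflight and 57.5 FPKM on the ground. Of the lignin, flavonoid and xylem list 2 loci were called and both fell, where 31.6% of loci of their lengths did. MYB12, which switches on flavonol synthesis, had 13.9 FPKM in spaceflight and 44.1 FPKM on the ground. PAL1, the entry enzyme of phenylpropanoids, had 163 FPKM in spaceflight and 282 FPKM on the ground. The cytokinin response regulators ARR5 and ARR8 fell 1.33-fold and 1.52-fold, where 55.0% of loci of their lengths fell.

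Some loci went against the direction of their length. Of 494 loci with transcripts of up to 1000 nt, 8 rose, and GEA6, LEA18, SESA2, AT2G21820 and AT1G03106, described above, are 5 of these. The remaining 3 are AT4G31830, AT1G60750 and AT2G05510. AT4G31830 had 4.37 FPKM in spaceflight and is listed at 0 on the ground. AT2G05510, a glycine-rich protein gene, had 29.8 FPKM in spaceflight and 14.5 FPKM on the ground, and AT1G60750, an oxidoreductase, had 20.1 FPKM in spaceflight and 8.59 FPKM on the ground. Of 419 loci over 2000 nt, 76 fell, or 18.1%. NRT1.1, NIA1, GLU2, AHA2, SULTR1;2, NIP5;1, PHT1-1, PAL1, LUX, SKU5 and the 5 laccases are among them. Others were ABI1, a phosphatase that restrains abscisic acid signalling, with 21.5 FPKM in spaceflight and 38.3 FPKM on the ground, and DWF4, of brassinosteroid synthesis, with 16.7 FPKM in spaceflight and 25.8 FPKM on the ground. CLPC1, a plastid chaperone, was called at 2 loci in opposite directions, with 21.3 and 8.77 FPKM in spaceflight against 11.0 and 22.8 FPKM on the ground, so its direction is uncertain.

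The same loci can be followed in the WS roots of the same age, whose spaceflight and ground libraries are separate from those of sku5. Of the sku5 loci, 312 were also called in WS at 8 d, which is 18.9% of 1648 and 35.1% of the 888 listed there. For scale, those 888 are out of 4882 loci that any of the study's comparisons lists. Whether the overlap exceeds that share was not tested. Of the 312, 52 rose in both and 225 fell in both. Another 11 rose in sku5 and fell in WS, and 24 fell in sku5 and rose in WS. Of all loci listed for WS, 53.8% fell. The difference between the genotypes was not tested, and a locus missing from a table may have missed the threshold by little. Called cold loci fell in both genotypes. KIN1 had 37.6 FPKM in spaceflight and 121 FPKM on the ground in WS, where 7 loci of the list were called, all lower. Other lists differed in direction, but mostly through different loci. Root hair genes had 5 called loci, all lower, in sku5 and 5, all higher, in WS, but only AGP3 was called in both. The hypoxia list had 4 lower in sku5 and 2 higher in WS, and only FTM1 was called in both. AGP3, an arabinogalactan protein gene of root hairs, had 169 FPKM in spaceflight and 306 FPKM on the ground in sku5, and 281 FPKM in spaceflight and 220.3 FPKM on the ground in WS. No gene of the seed list was called in WS at 8 d. At 4 d, however, GEA6 was called in WS with 452 FPKM in spaceflight and 191 FPKM on the ground, and OLEO4 with 61.4 FPKM in spaceflight and 24.5 FPKM on the ground. On the ground at 4 d, GEA6 thus stood at 2.06 FPKM in sku5 and 191 FPKM in WS, in tables normalised separately. In opposite directions, AT1G12805, annotated as a nucleotide-binding protein, had 1.80 FPKM in spaceflight and 22.9 FPKM on the ground in sku5, and 29.0 FPKM in spaceflight and 4.49 FPKM on the ground in WS. FTM1, a fatty acid desaturase family gene, had 5.05 FPKM in spaceflight and 16.4 FPKM on the ground in sku5, and 22.5 FPKM in spaceflight and 4.19 FPKM on the ground in WS. EARLI1, a lipid transfer-like gene related to AZI1, had 32.3 FPKM in spaceflight and 86.9 FPKM on the ground in sku5, and 44.8 FPKM in spaceflight and 17.7 FPKM on the ground in WS. ZAT10, a zinc finger repressor induced by many stresses, had 6.45 FPKM in spaceflight and 15.4 FPKM on the ground in sku5, and 9.64 FPKM in spaceflight and 4.91 FPKM on the ground in WS. These 4 loci fell in sku5 and rose in WS. GLU2 did likewise, with 77.0 FPKM in spaceflight and 47.2 FPKM on the ground in WS, and so did ARR8, with 28.0 FPKM in spaceflight and 11.0 FPKM on the ground in WS. AT1G18700, a DnaJ protein gene, did the reverse, with 11.1 FPKM in spaceflight and 6.94 FPKM on the ground in sku5, and 6.03 FPKM in spaceflight and 9.98 FPKM on the ground in WS.

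**Figure D5:**
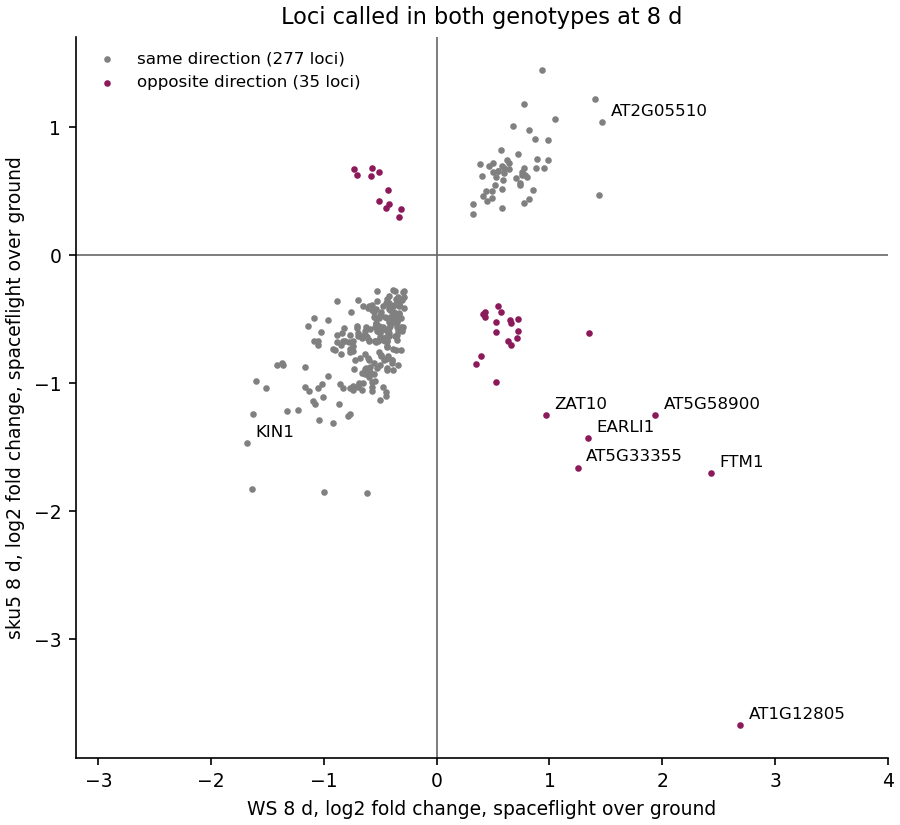
Each point is a locus called at 8 d in both genotypes, placed by its log2 fold change of spaceflight over ground in WS (horizontal) and in sku5 (vertical). Most points, 277 loci, share a direction, and the 35 of opposite direction include AT1G12805, FTM1 and EARLI1.

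Younger sku5 roots give a further set of separate libraries. Of the 8-d loci, 265 were also called in sku5 at 4 d, which is 16.1% of 1648 and 26.3% of the 1007 listed there. Those 1007, of which 40.4% fell, are likewise out of 4882 loci, and whether the overlap exceeds that share was not tested. Of the 265, 68 rose at both ages and 179 fell at both. Another 6 rose at 8 d and fell at 4 d, and 12 fell at 8 d and rose at 4 d. The seed list had 11 loci called at 4 d, all higher. GEA6 had 1205 FPKM in spaceflight and 2.06 FPKM on the ground at 4 d. At 4 d the iron list had 4 loci lower and 1 higher, and so had the nitrogen list. The merged locus of IRT1 had 132 FPKM in spaceflight and 332 FPKM on the ground at 4 d, and NRT1.1 had 20.6 FPKM in spaceflight and 54.9 FPKM on the ground. The merged locus of FER2 was the higher one of the iron list at 4 d, with 64.6 FPKM in spaceflight and 4.87 FPKM on the ground. ZAT10 was higher in spaceflight at 4 d, with 19.9 FPKM in spaceflight and 8.12 FPKM on the ground. The merged locus of HSP90.2 and HSP90.3 rose at 8 d, with 251 FPKM in spaceflight and 186 FPKM on the ground, and fell at 4 d, with 213 FPKM in spaceflight and 351 FPKM on the ground. In all, 15 of the 8-d loci were called in the spaceflight comparisons of both genotypes at both ages. TRX5, a cytosolic thioredoxin, was lower in spaceflight in all 4, with 314 FPKM in spaceflight and 652 FPKM on the ground in sku5 at 8 d. The locus of AIR1, an auxin-induced gene of lateral root formation merged with AT4G12545, had 1151 FPKM in spaceflight and 1874 FPKM on the ground in sku5 at 8 d and was lower in all 4. HSP90.1 and AT2G05510 were higher in all 4. AT5G33355, a defensin-like gene, was lower in 3 of them and higher in WS at 8 d, with 142 FPKM in spaceflight and 59.9 FPKM on the ground.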

How the data were processed

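RNA was measured in roots of 8 samples, 4 from sku5 spaceflight and 4 from sku5 ground seedlings at 8 d, from libraries made with SMART-Seq v4 and Nextera kits from 10 ng of total RNA, per the labels. The tools named in the submitters' processing notes are Cuffdiff, Cufflinks, Picard, STAR 2.5.1b, FastQC 0.11.2 and Trimmomatic 0.36, with no role or genome build stated there. Per the file headers, the authors deposited for each locus 1 FPKM value a group, a fold change on the log2 scale, a test score, a p-value and a q-value. No table holds values per library, so depth and the spread between samples are unknown. Listed loci were used as called by the authors. Folds, spaceflight over ground, were computed from FPKM with Python 3.11.15, pandas 2.3.3 and numpy 2.4.6, after a check on simulated data. Products, transcript lengths and sequences were matched by gene identifier to RefSeq's TAIR10.1, which had 1493 of the 1497 single genes; the files' own coordinates overlapped them for 100 and were not used. Of 27 lists by identifier and 39 families by product words, 4 had no called locus. Named loci are the 10 highest and 10 lowest ratios with at least 5 FPKM in the higher group and both values above 0, loci at 0, the most abundant, list members by fold, and the largest opposite changes in WS; not all are printed, and long transcripts that fell were named after their values had been seen. Members and lists were chosen with earlier results of these data known, so no list was tested.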

Additional observations from a re-analysis of the deposited data

How the results depend on the processing

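Pseudocounts of 0.1 and 1 FPKM cannot turn a direction, and scaling the group values as in the study's other tables shifts log2 fold changes by -0.05 to 0.11, less than the smallest listed change of 0.27, so neither tests the directions of the 540 higher and 1108 lower loci. At a q-value under 0.01, 302 loci were higher and 715 lower, which makes 70.3% lower instead of 67.2%. With only 2-fold or larger changes, 56 were higher and 187 lower, which makes 77.0% lower. A minimum of 1 FPKM changed nothing, and single genes alone gave 505 higher and 992 lower. Of 66 lists and families, 5 changed their larger direction under a filter; at 2-fold, translation factors kept 0 higher and 1 lower locus and vesicle genes 0 and 1. A pseudocount of 1 FPKM moved 6 folds by over 1.5 times: the log2 fold change became 5.64 for CRA1, 5.57 for CRU3, 3.80 for GEA6, 2.56 for AT3G15670, 1.91 for MLS and 4.49 for AT1G54870. No sample could be left out, since only group values are listed. No paired analysis was possible because the tables hold 1 value a group. Low levels limit these ratios, and the precision of a fold is known only from the authors' score.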
